A study of Mus musculus with 12 samples.

Results

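The natural killer receptor and C-type lectin genes were taken as all genes whose symbol begins with Klr and a letter from a to k, or with Clec and a number. In the master peak-list of accessible chromatin, 164 of 84243 peaks had such a gene as their nearest promoter. The annotation held 65 genes of this kind on the assembled chromosomes, 60 of them protein-coding and 5 pseudogenes. Of the 164 peaks, 98 belonged to the natural killer gene complex of chromosome 6, 24 to a separate block of chromosome 6 with Klrg1 and the Clec4 genes, 13 to other places on chromosome 6 and 29 to other chromosomes. The genes divided in the same order into 43, 10, 4 and 8.

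The list came from ATAC-seq, in which a transposase cuts open chromatin, of 12 samples from wild-type C57BL/6 mice that were 8 to 12 weeks old, with 2 replicates for each of 6 sorted cell types. Hematopoietic stem cells (HSCs), megakaryocyte progenitors (MkPs), erythroid progenitors (EPs), granulocyte/macrophages (GMs) and B cells were from bone marrow, and T cells from thymus. None of the 6 groups was labelled as natural killer (NK) cells. The list joined the cell types and named none for a peak, its score was 0 in every peak, and the depth per sample was unknown, so a peak says only that the position was called open in at least 1 cell type and no value has a replicate error.

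NK cells kill infected or transformed cells when signals from activating receptors outweigh those from inhibitory ones, and in the mouse most of these receptors are lectin-like proteins encoded side by side in the natural killer gene complex. The Klra genes encode the Ly49 receptors for MHC class I, the Klrb1 genes encode the NKR-P1 receptors, and several of their ligands are the products of the Clec2 genes that lie between them. The Clec1, Clec7, Clec9 and Clec12 genes of the same complex and the Clec4 genes of the other block mostly serve myeloid and dendritic cells, where their products bind fungal and bacterial sugars or dead cells.

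The sequence that recurred most among these peaks lay upstream of the Klra genes, all of which are on the minus strand. When the 164 peaks were aligned with each other, a grouping chosen after their positions were seen, 31 aligned with at least 1 other over 200 bp or more at 80% identity or more, in 12 groups. The largest group held 7 Klra peaks. Each is shown here from a point 12 bases upstream of the place of the AP-1 consensus to 12 bases downstream of the RUNX consensus, on the strand of the genes (GRCm38, mm10). Capitals mark the letters of the 9 consensus sequences that were searched, here AP-1, RUNX and GATA. The AP-1 word was TGANTCA. The RUNX word reads TGTGGTT on this strand, and the GATA word AGATAA.
Klra5, chr6:129917734-129917912, minus strand: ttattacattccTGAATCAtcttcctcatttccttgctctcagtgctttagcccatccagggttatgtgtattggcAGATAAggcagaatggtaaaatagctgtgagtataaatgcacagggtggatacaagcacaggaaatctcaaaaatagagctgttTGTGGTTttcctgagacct
Klra19, chr6:130031797-130031973, minus strand: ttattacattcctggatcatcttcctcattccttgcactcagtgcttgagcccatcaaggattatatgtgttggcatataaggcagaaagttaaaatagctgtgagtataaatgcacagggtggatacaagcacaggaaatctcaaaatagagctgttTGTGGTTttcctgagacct
Klra9, chr6:130197731-130197907, minus strand: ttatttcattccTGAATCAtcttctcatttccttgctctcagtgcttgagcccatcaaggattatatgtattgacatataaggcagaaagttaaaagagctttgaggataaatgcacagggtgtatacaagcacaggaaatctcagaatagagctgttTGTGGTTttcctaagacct
Klra7, chr6:130237885-130238060, minus strand: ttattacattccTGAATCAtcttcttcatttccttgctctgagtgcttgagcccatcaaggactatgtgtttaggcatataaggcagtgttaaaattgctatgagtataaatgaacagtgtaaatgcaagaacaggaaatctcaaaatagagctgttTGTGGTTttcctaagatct
Klra10, chr6:130288344-130288521, minus strand: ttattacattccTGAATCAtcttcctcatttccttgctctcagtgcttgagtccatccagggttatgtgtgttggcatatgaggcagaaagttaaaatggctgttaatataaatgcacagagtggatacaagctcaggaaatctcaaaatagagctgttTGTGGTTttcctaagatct
Klra3, chr6:130342268-130342444, minus strand: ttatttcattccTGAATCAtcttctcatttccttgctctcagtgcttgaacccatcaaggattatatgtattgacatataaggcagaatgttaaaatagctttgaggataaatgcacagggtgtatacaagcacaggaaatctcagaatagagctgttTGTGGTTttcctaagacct
Klra1, chr6:130387057-130387234, minus strand: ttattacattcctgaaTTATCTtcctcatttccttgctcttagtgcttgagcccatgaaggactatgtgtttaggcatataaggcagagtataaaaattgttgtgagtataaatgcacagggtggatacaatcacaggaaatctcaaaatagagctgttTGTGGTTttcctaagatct

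The peak listed under Klra19, a name that the RefSeq annotation used here lacks, lay upstream of Klra6. The 21 pairs among these 7 peaks aligned over 366 to 490 bp at 83.0% to 98.0% identity, with a median of 87.8%. Of 350 alignment columns without a gap, 263 (75.1%) had the same base in all 7 peaks. The RUNX word stood at the same place in all 7, whereas the GATA word was in 3 peaks at 3 different places and the ETS, TCF and CTCF words were in none. The AP-1 word stood at 1 shared place in 5 of the 7, those of Klra5, Klra9, Klra7, Klra10 and Klra3. Over the whole list 16.1% of peaks held the RUNX word and 15.3% held the AP-1 word, but the 7 peaks are copies of each other and cannot be counted as 7 separate cases.

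No other stretch of the complex was 80% identical over 200 bp. A looser search of the complex and its flanks of 50 kb, at 70% identity over 150 bp, was made with the 7 peaks themselves. It found 15 copies, of which 7 lay under a peak and 8 did not. The 7 are thus the sequences searched with, and the 8 are those that the stricter search missed. The difference in identity between the 2 sets follows from this search. The 8 copies without a peak were at most 71.9% to 79.6% identical to a peak of the group, against 88.6% to 98.0% between each of the 7 and its nearest relative. None of the 8 held the RUNX word of 7 letters anywhere, and at the place where the 7 copies hold it none had its 6-letter core TGTGGT, although 4 of the 8 had that core elsewhere. The AP-1 word was at its shared place in 6 of the 8. Each shared place was picked as the one where most copies hold the word, and the difference between the sets was not tested. The same stretch is shown for Klra4 and Klra8, the protein-coding genes whose upstream copy of over 500 bp had no peak; the capitals in Klra4 also mark a CEBP consensus (TTGCNNAA).
Klra4, chr6:130075309-130075486, minus strand: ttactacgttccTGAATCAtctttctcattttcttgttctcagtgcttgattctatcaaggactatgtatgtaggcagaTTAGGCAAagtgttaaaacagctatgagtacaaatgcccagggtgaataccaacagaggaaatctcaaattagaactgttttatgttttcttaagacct
Klra8, chr6:130140313-130140488, minus strand: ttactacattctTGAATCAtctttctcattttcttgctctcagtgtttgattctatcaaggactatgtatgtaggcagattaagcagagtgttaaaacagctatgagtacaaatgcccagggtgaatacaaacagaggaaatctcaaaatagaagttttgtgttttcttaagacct

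Ly49D and Ly49H, the products of Klra4 and Klra8, are activating receptors, while Ly49A, Ly49C, Ly49E, Ly49F, Ly49G and Ly49I, the products of Klra1, Klra3, Klra5, Klra6, Klra7 and Klra9, carry an inhibitory motif in their tails. The copies with a peak lay upstream of these 6 genes and of Klra10. The copies without a peak were 8041 bp upstream of Klra4, 10415 bp upstream of Klra8, and 13834, 9390 and 9152 bp upstream of the pseudogenes Klra11-ps, Klra14-ps and Klra13-ps. The other 3 lay 21069 bp downstream of the Klra6 start and 16899 and 30343 bp upstream of Klra2. Any link between the class of receptor and a peak was not tested. It would rest on Klra4 and Klra8 alone for the activating class, and Klra2 and Klra17 were not placed in a class here. Repeated sequence was measured beside these counts, as the share of 100-base words that occur more than once in the assembled chromosomes, because reads that map to several places were left out of the peak calls. The share had a median of 0.0% in both sets of copies, with a range of 0.0% to 10.2% under peaks and 0.0% to 3.07% without them.

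**Figure D1:**
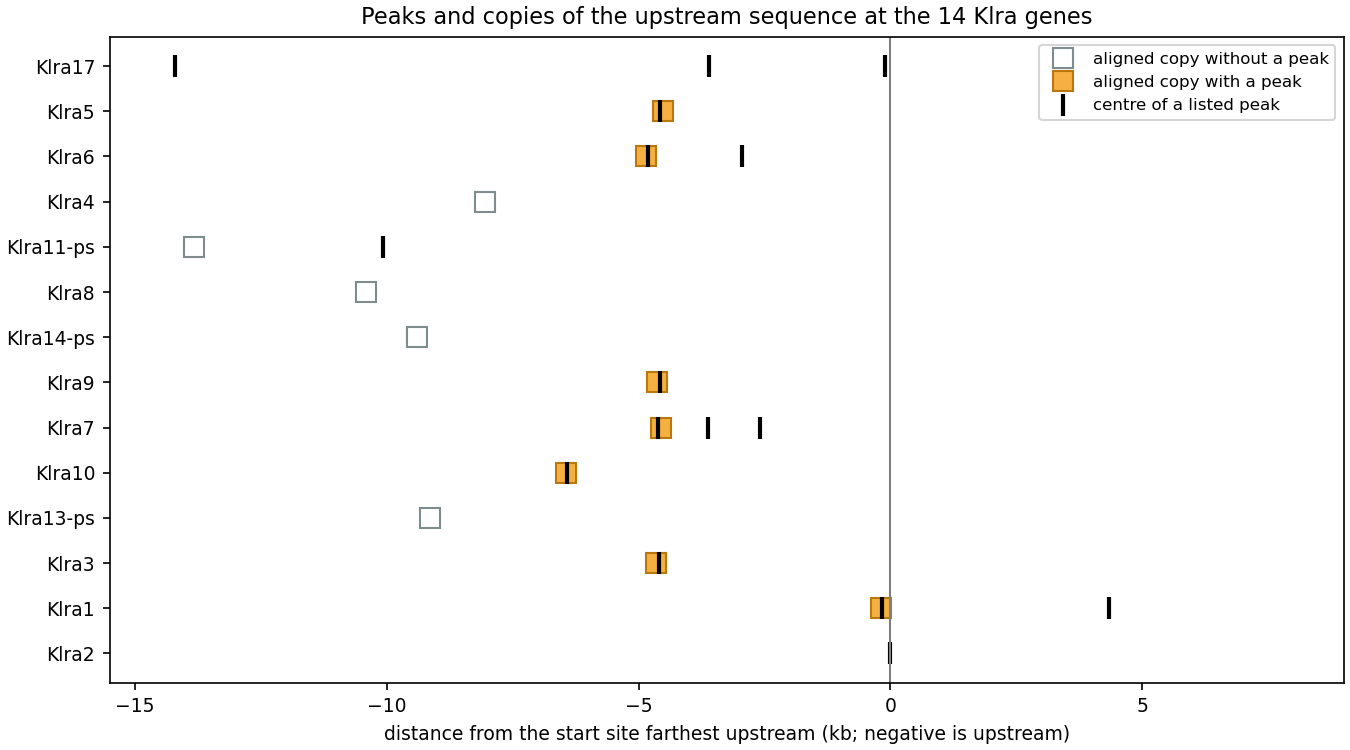
Peaks (black ticks) and copies of the upstream sequence (squares, filled with a peak and open without) at each of the 14 Klra genes, drawn as the distance in kb from the gene's start site farthest upstream, with negative values upstream. At 4 genes (Klra5, Klra9, Klra7 and Klra3) the filled square sits between 4523 and 4662 bp upstream of the start, and the open squares drawn have no tick and lie at least 8041 bp upstream.

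The distance to the transcription start site (TSS) was alike at Klra5, Klra9, Klra7 and Klra3 but differed at the other copies with a peak. The peak centre lay 4581 bp upstream of Klra5, 4584 bp upstream of Klra9, 4605 bp upstream of Klra7 and 4598 bp upstream of Klra3. The peak upstream of Klra6 was 4817 bp from its nearest curated TSS, and that of Klra10 was at 6424 bp. At Klra1 the annotated TSS lies far upstream of the rest of the gene, and the seventh peak of the group was centred 175 bp upstream of that TSS. A further peak at Klra1, listed under Klra22, was centred 4342 bp downstream of that TSS, 4517 bp from the other peak, in an exon of the 5′ untranslated region. Klra5, Klra9, Klra10 and Klra3 had no other assigned peak.

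Promoter peaks, those centred within 500 bp of a TSS of the gene, were few in the complex. Of the 8 nearest to a TSS, 7 are shown by the bases of the peak in the 150 bp upstream of the TSS, without those that lie in an exon of any curated or predicted transcript. At Klra2, whose predicted exon begins farther upstream, no base was left to show. The Klrd1 stretch lies in an intron of transcripts with a start farther upstream. The capitals are as before and mark CEBP, AP-1 and E-box (CAGCTG) words.
Clec2d, chr6:129180465-129180614, plus strand: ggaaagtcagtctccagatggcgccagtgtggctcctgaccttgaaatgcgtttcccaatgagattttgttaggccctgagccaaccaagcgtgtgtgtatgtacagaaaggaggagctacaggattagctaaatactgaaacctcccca
Clec2m, chr6:129331808-129331931, minus strand: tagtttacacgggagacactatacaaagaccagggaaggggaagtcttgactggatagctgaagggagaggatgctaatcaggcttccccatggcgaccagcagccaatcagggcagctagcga
Clec2i, chr6:128887437-128887586, plus strand: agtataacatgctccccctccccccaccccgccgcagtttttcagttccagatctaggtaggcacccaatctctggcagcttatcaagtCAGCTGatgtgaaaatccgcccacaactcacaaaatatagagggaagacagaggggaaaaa
Klrd1, chr6:129591660-129591748, plus strand: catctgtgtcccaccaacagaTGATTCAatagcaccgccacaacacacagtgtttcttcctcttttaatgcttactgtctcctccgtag
Clec2h, chr6:128662235-128662384, plus strand: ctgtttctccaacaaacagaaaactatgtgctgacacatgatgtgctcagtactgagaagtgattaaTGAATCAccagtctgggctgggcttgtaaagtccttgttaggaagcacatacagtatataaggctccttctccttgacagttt
Klra17, chr6:129876673-129876822, minus strand: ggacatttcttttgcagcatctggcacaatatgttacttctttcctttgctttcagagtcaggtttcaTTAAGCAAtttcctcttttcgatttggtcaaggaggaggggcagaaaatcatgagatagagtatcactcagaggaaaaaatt
Clec1a, chr6:129452001-129452128, minus strand: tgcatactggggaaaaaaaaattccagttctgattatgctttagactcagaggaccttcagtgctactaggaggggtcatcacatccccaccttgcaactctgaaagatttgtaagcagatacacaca

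The peak at the Klra2 TSS (14 bp upstream) and the peak at the Klra17 TSS (103 bp upstream) aligned over 382 bp at 76.7% identity. The CEBP word of each begins 79 bp and 82 bp upstream of the TSS. Klra2 and Klra17 encode Ly49B and Ly49Q, which are known from myeloid and plasmacytoid dendritic cells rather than from NK cells. The peak under Klra22 aligned with that of Klra17 at 76.2% over 441 bp and with that of Klra2 at 68.1% over 479 bp. Klra1, Klra2 and Klra17 were the 3 of 14 Klra genes with a promoter peak, and that of Klra1 is a copy of the upstream sequence shown above. No promoter peak lay at a TSS of the other 11.

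In all, 19 of 65 member genes had a promoter peak (29.2%, 95% Wilson interval 19.6% to 41.2%), or 19 of 60 without the pseudogenes. Over all protein-coding genes the share was 58.5%, above the upper end of that interval. Such intervals cover counting error only, and neighbouring paralogs are not independent of each other. At least 1 peak was assigned to 52 of the 65 genes (80%, 68.7% to 87.9%), an interval that includes the 72.8% of protein-coding genes.

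**Figure D2:**
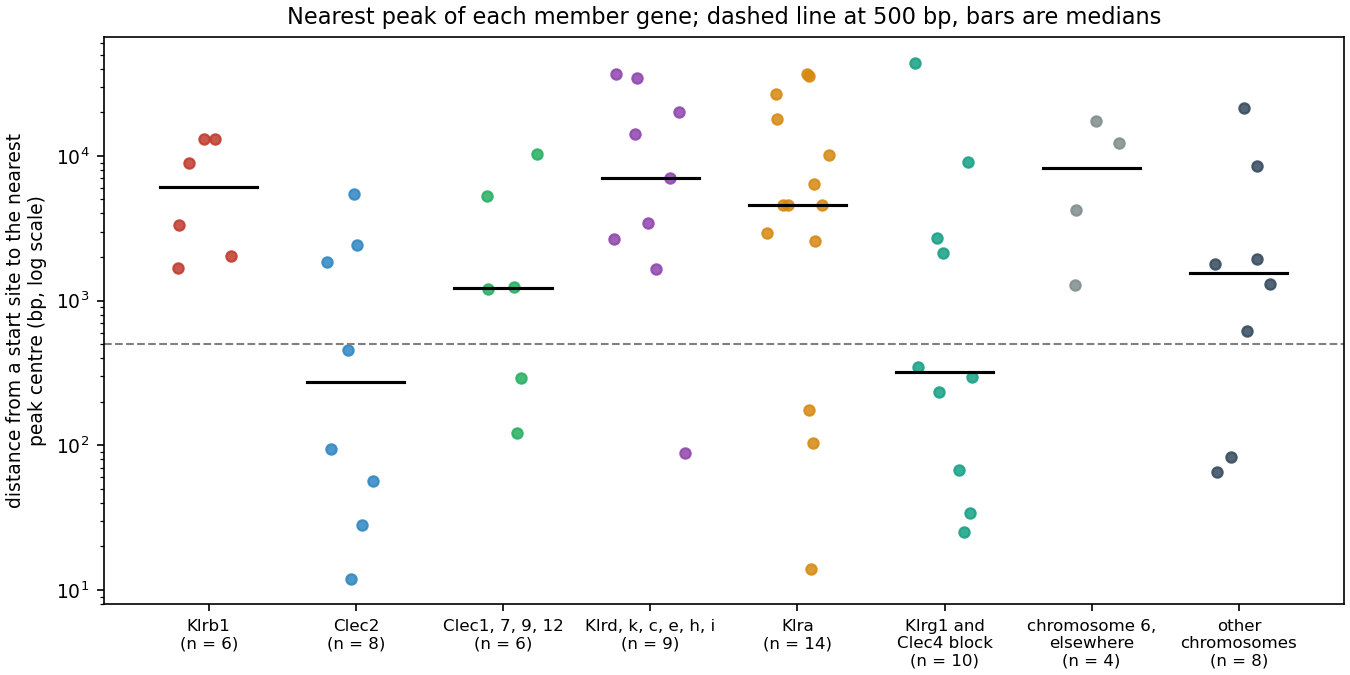
Distance in bp, on a log axis, from a TSS of each of the 65 member genes to the nearest peak centre, by gene family in the complex and by place elsewhere; points are genes, black bars are medians and the dashed line is at 500 bp. The 6 Klrb1 genes all lie above the line, while 5 of 8 Clec2 genes and 6 of 10 genes of the Klrg1 and Clec4 block lie below it. Over all protein-coding genes, 58.5% have a peak centred within 500 bp.

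The receptor and ligand genes at the start of the complex differed in this respect. The 58.5% of all protein-coding genes with a promoter peak stands beside each count by family below. The Klrb1 genes had 32 peaks assigned to 5 of 6 genes, but 0 of the 6 had a promoter peak. Klrb1c, which encodes the NK1.1 antigen, had the most assigned peaks of all members with 11, and its nearest peak was centred 2022 bp into the gene. Klrb1b, the inhibitory receptor for the product of Clec2d, and Klrb1f, the receptor for the product of Clec2i, had 7 peaks each, with the nearest at 13159 bp upstream and 3349 bp downstream of the TSS.

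The Clec2 genes had 17 assigned peaks and a promoter peak at 5 of 8 genes, a share near the 58.5% of all protein-coding genes. The peak of Clec2d, whose product is displayed on most blood cells and engages Klrb1b, was centred 12 bp upstream of the TSS and that of Clec2i 57 bp upstream. The peaks of Clec2h and Clec2f were centred 94 bp and 456 bp downstream. Clec2m had a peak 28 bp upstream, but the peak-list calls this gene 4922502D21Rik, and the 7 peaks under that name are outside the 164. No difference between the families was tested.

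Several of the Klrb1c peaks were copies of each other. A peak 27631 bp downstream of the Klrb1c TSS aligned at 95.3% with a peak 10971 bp upstream, another at 24454 bp downstream aligned at 91.1% with a peak 14538 bp upstream, and the peak at 21664 bp downstream aligned at 95.3% with the peak 16655 bp upstream. The 3 pairs were 38.6, 39.0 and 38.3 kb apart, in the same order. The share of repeated 100-base words in these 6 peaks was 9.75%, 0.0% and 15% downstream of the TSS and 1.75%, 0.0% and 15% upstream. A Klrb1c peak 7765 bp upstream and a Klrb1f peak 8809 bp upstream aligned at 95.4% over 302 bp, and peaks 1516 bp into Clec2i and 1840 bp into Clec2g aligned at 95.7% over 398 bp.

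The remaining families of the complex lay between these 2 ends. Of the 6 genes of the Clec1, Clec7, Clec9 and Clec12 group, all had an assigned peak, 17 in total, and 2 had a promoter peak. These were Clec12a, an inhibitory receptor of myeloid cells, at 291 bp upstream, and Clec1a, which is expressed by endothelial and dendritic cells, at 121 bp downstream. Clec12a had 5 assigned peaks. Of the Clec9a peaks the nearest was 1251 bp upstream, and Clec7a, the β-glucan receptor Dectin-1, had its nearest peak 1198 bp downstream.

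Among the 9 genes of the CD94 and NKG2 group, 10 peaks were assigned and 1 gene had a promoter peak. This gene was Klrd1, which encodes CD94, the partner shared by the NKG2 receptors, with a peak 89 bp upstream. Klre1, an NK receptor that pairs with the products of Klri1 and Klri2, had 5 peaks, the nearest 2665 bp upstream. Klrc1, which encodes the inhibitory NKG2A, had a single peak 1643 bp upstream, and Klrk1, which encodes the activating NKG2D, had 1 at 14121 bp downstream. No peak was assigned to Klrc2 or Klrc3, which encode the activating NKG2C and NKG2E.

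Repeated sequence was unevenly spread over these promoters. In the 1000 bp around the TSSs of Klrc2 and Klrc3, 45.6% and 45.5% of 100-base words occurred more than once, the highest values of the 65 members, and with 50-base words the shares were 69.5% and 69.4%. At the promoters of Klra14-ps, Clec2g, Klra8, Klra11-ps and Klra4, none of which had a promoter peak, the shares with 100-base words were 25.3%, 18.2%, 17.1%, 10.9% and 9.1%. Some repeated word was present at 12 of 43 member promoters of the complex, against 0 of 22 elsewhere and 14.4% of protein-coding genes. Within the complex it was present at 2 of the 11 promoters with a peak and 10 of the 32 without, and the median share was 0.0% in both. With 50-base words it was present at 4 of the 11 with a peak (median share 0.0%) and at 23 of the 32 without (median share 2.89%). Its part in the lack of peaks was not tested.

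No peak was assigned to 13 members. In the complex these were Clec2j, Clec2m, Klra11-ps, Klra13-ps, Klra14-ps, Klra4, Klra6, Klrb1-ps1, Klrc2, Klrc3 and Klrh1, and elsewhere Clec18a and Clec4b1. With the nearest curated RefSeq TSS in place of the nearest promoter of the list, Clec2m, Klra6 and Klrh1 received 7, 2 and 1 peaks, and 55 of 65 genes had at least 1.

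The complex was then compared with member genes elsewhere. A promoter peak was present at 11 of 43 genes of the complex (25.6%, 14.9% to 40.2%) and at 8 of 22 elsewhere (36.4%, 19.7% to 57.0%), with an odds ratio of 0.602 (two-sided Fisher's exact test, p = 0.399, adjusted p = 0.532 over 4 tests by the Benjamini-Hochberg method). An assigned peak was present at 32 of 43 and 20 of 22 genes (74.4% and 90.9%, exact test, p = 0.19, adjusted p = 0.38). Clec2m, Klra6 and Klrh1, all in the complex, count here as without a peak, although they receive peaks by the RefSeq TSS. Of the assigned peaks, 10 of 98 and 8 of 66 were promoter peaks (10.2% and 12.1%, exact test, p = 0.8, adjusted p = 0.8), and 15 of 98 and 17 of 66 were annotated to a repeat (15.3% and 25.8%, exact test, p = 0.111, adjusted p = 0.38). None of the 4 differences passed the threshold of 0.05, and the intervals of each pair of shares overlapped. The first odds ratio turned to 2.36 (exact test, p = 0.484) when the Klrg1 and Clec4 block was counted with the complex, since most promoter peaks elsewhere were in that block.

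In the Klrg1 and Clec4 block 6 of 10 genes had a promoter peak (60%, 31.3% to 83.2%), near the 58.5% of all protein-coding genes. The promoter stretches of the 4 nearest to a TSS are shown for comparison with those of the complex, again upstream of the TSS and without exons; the capitals mark RUNX and CEBP words.
Clec4a3, chr6:122952365-122952514, plus strand: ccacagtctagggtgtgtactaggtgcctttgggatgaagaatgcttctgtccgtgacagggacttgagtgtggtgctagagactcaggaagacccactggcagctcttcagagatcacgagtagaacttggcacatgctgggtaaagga
Clec4a2, chr6:123123166-123123288, plus strand: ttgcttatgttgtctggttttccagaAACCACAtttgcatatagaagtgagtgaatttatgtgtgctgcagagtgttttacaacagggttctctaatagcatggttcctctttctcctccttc
Clec4e, chr6:123289872-123290021, minus strand: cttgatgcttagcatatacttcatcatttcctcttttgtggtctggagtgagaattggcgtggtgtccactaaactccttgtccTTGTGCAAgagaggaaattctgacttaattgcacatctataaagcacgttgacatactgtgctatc
Clec4a1, chr6:122921698-122921847, plus strand: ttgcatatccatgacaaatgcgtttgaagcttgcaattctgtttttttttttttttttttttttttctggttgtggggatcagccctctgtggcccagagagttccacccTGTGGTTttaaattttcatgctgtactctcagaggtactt

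The peaks of Clec4a1, Clec4a4 and Clec4a2, of the DCIR family of dendritic and myeloid cells, were centred 234, 295 and 34 bp upstream of the TSS, and that of Clec4a3 25 bp downstream. The Clec4a4 and Clec4a2 peaks aligned at 81.3% over 454 bp. Clec4e, which encodes the mycobacterial glycolipid receptor Mincle, had a peak 68 bp upstream, and its partner Clec4d had one 345 bp upstream. They had 4 and 7 assigned peaks. No promoter peak was found at Clec4b1, Clec4b2, Clec4n or Klrg1, an inhibitory receptor of mature NK and T cells whose nearest peak was 9088 bp upstream. Whether this block differed from the complex was not tested on its own.

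Elsewhere on chromosome 6, 0 of 4 genes had a promoter peak, and on other chromosomes 2 of 8. These were Clec10a, the macrophage galactose lectin, at 83 bp upstream and Clec16a, a regulator of mitophagy, at 65 bp downstream. Clec14a, a lectin of endothelial cells, had 10 assigned peaks, but 5 of them were over 100 kb away, between 241782 and 321440 bp upstream. Clec16a and Clec2l had 8 peaks each, and all 8 of Clec2l were at least 12334 bp from its TSS. None of these 8 was centred within Clec2l, and those 47572 to 74886 bp downstream were annotated to an intron or exon of other transcripts.

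Peak density differed along the complex, which was densest in its Klrb1 to Clec7a portion. The complex spans chr6:128609227-131247716 by its outermost member genes, and 135 peaks of any gene were centred in its 2.64 Mb, or 51.2 per Mb. Chromosome 6 as a whole had 33.2 per Mb and all chromosomes 30.9 per Mb. Over 1025 windows of the size of the complex the median was 29.6 per Mb and the upper quartile 47.4 per Mb. Density was 90.1 per Mb from Klrb1a to Clec2d, 126 per Mb from Clec2m to Clec7a, 40.0 per Mb from Klre1 to Klrh1 and 27 per Mb from Klra17 to Klra1. Of the stretches measured it was highest, at 177 per Mb, in the 0.136 Mb between Clec2d and Clec2m. There 2 of the 24 peaks were assigned to a member by name. The others were under 2310001H17Rik, Cd69 and 4922502D21Rik, the name that the list gives to the member Clec2m. Density was 104 per Mb between Clec7a and Klre1, where 2 of 9 peaks were assigned to a member. In the 0.812 Mb between Klra1 and Klra2 it was 6.16 per Mb, or 5 peaks. The Klrg1 and Clec4 block had 85.4 per Mb.

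**Figure D3:**
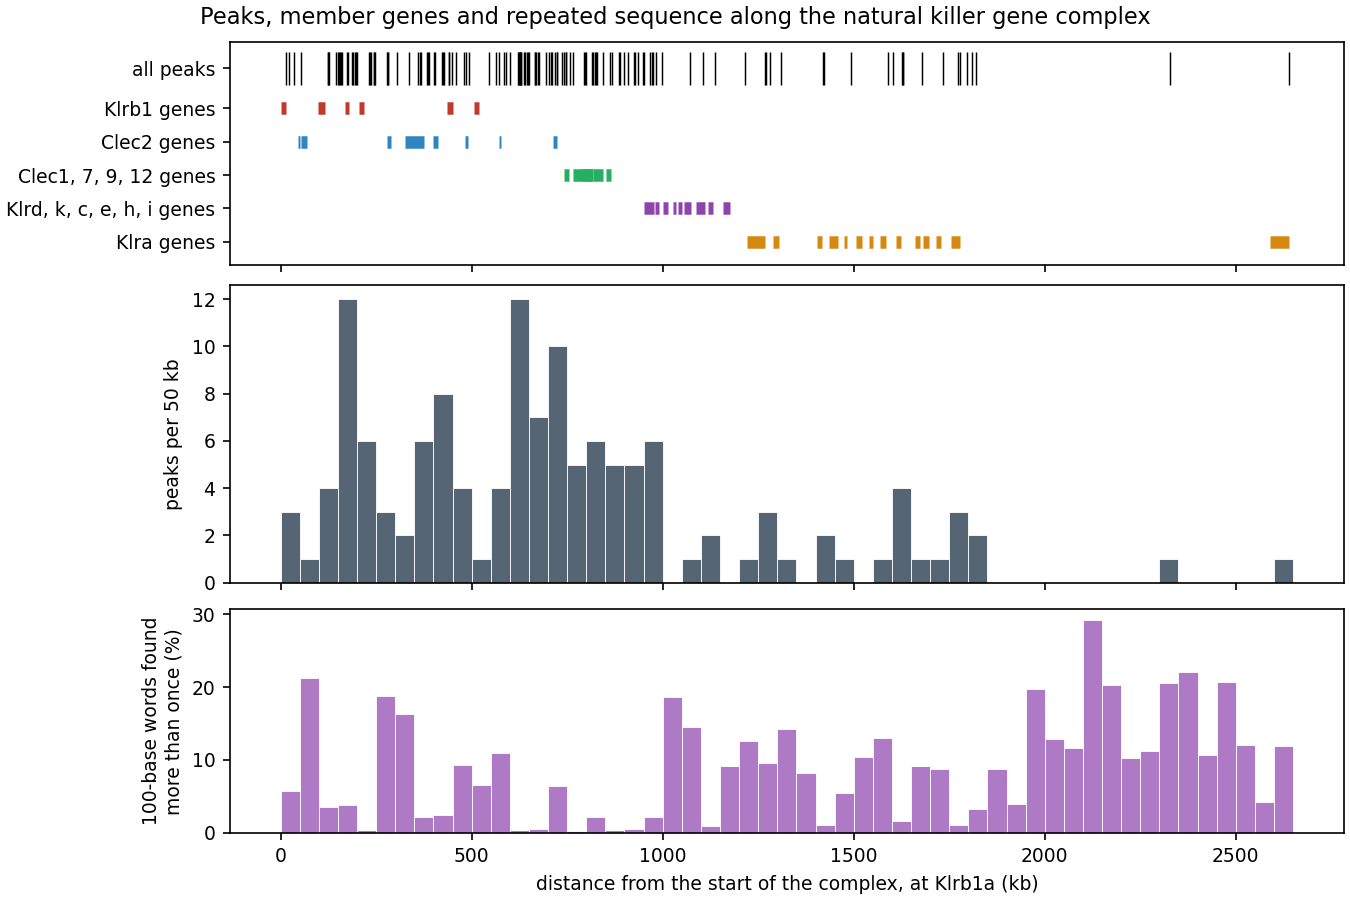
Position along the complex, in kb from its start at Klrb1a, of all 135 peaks (black ticks) and of the member genes by family (coloured bars), with the number of peaks and the percentage of repeated 100-base words in bins of 50 kb. Peaks are dense over the first 1000 kb. They number 27 per Mb from Klra17 to Klra1, against 30.9 per Mb over all chromosomes, and are sparse between Klra1 and Klra2, at 6.16 per Mb. Repeated words reach 29.2% in a bin without peaks between Klra1 and Klra2.

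The share of repeated 100-base words was 9.15% over the complex, 8.34% from Klrb1a to Clec2d, 3.56% between Clec2d and Clec2m, 1.8% from Clec2m to Clec7a, 8.26% from Klre1 to Klrh1, 8.15% from Klra17 to Klra1 and 13.6% between Klra1 and Klra2. With 50-base words the share was 18.4% from Klrb1a to Clec2d and 21.3% from Klra17 to Klra1, where the densities were 90.1 and 27 per Mb. It was 5.95% from Clec2m to Clec7a and 33.6% between Klra1 and Klra2, at 126 and 6.16 per Mb. The part of repeated sequence in the densities was not tested.

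Most member peaks lay away from promoters, as did most peaks of the whole list. Of 164 peaks, 18 (11%, 7.06% to 16.7%) were promoter peaks, an interval that includes the 15.6% of all peaks. Intergenic peaks made up 49.4% (41.8% to 57.0%) against 37.6%, and intron peaks 32.3% (25.6% to 39.8%) against 41.5%. The median distance to the TSS was 10608 bp, against 16023 bp over all peaks, and was 8780.5 bp in the complex and 12418 bp outside it. Repeats were the annotation of 32 member peaks (19.5%, 14.2% to 26.2%), an interval that includes the 15.1% of all peaks. CpG islands were the annotation of 2 member peaks, those 10971 bp upstream of Klrb1c and 16869 bp upstream of Klrb1b.

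Consensus words of 9 families of factors were counted on both strands of whole peaks, as letters and not as bound sites. In the complex the CEBP word was in 35 of 98 peaks (35.7%, 26.9% to 45.6%), against 19.7% (11.9% to 30.8%) of member peaks elsewhere and 19.3% of all peaks. The GATA word was in 35.7% of the peaks of the complex and 31.8% of those elsewhere, against 24.1% of all peaks. In the central 200 bp the CEBP word was in 20.4% (13.6% to 29.4%) of the peaks of the complex against 8.88% of all, and the GATA word in 15.3% (9.5% to 23.7%) against 11.3%. The RUNX word, AACCACA on the plus strand, was in 25.5% (17.9% to 35.0%) and 21.2%, against 16.1%, and 7 of the 25 peaks of the complex with it were the Klra copies shown above. For ETS (AGGAAGT) the shares were 18.4% and 25.8% against 24.7%, and for AP-1 they were 21.4% and 18.2% against 15.3%.

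The T-box word (AGGTGTG), read by the NK cell factors T-bet and Eomes, was in 8.16% of the peaks of the complex and 6.06% of those elsewhere, against 10.6% of all peaks. The TCF word (CTTTGAT) was in 8.16% and 13.6% against 6.76%, the E-box word in 28.6% and 27.3% against 29.8%, and the CTCF consensus in 4.08% and 9.09% against 7.68%. The median GC content of the sequence was 43.3% in peaks of the complex, 44.6% in member peaks elsewhere and 48.9% in all peaks, and the part of base composition in these shares was not tested. No word contains another, although words of different families may share bases in a peak.

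**Figure D4:**
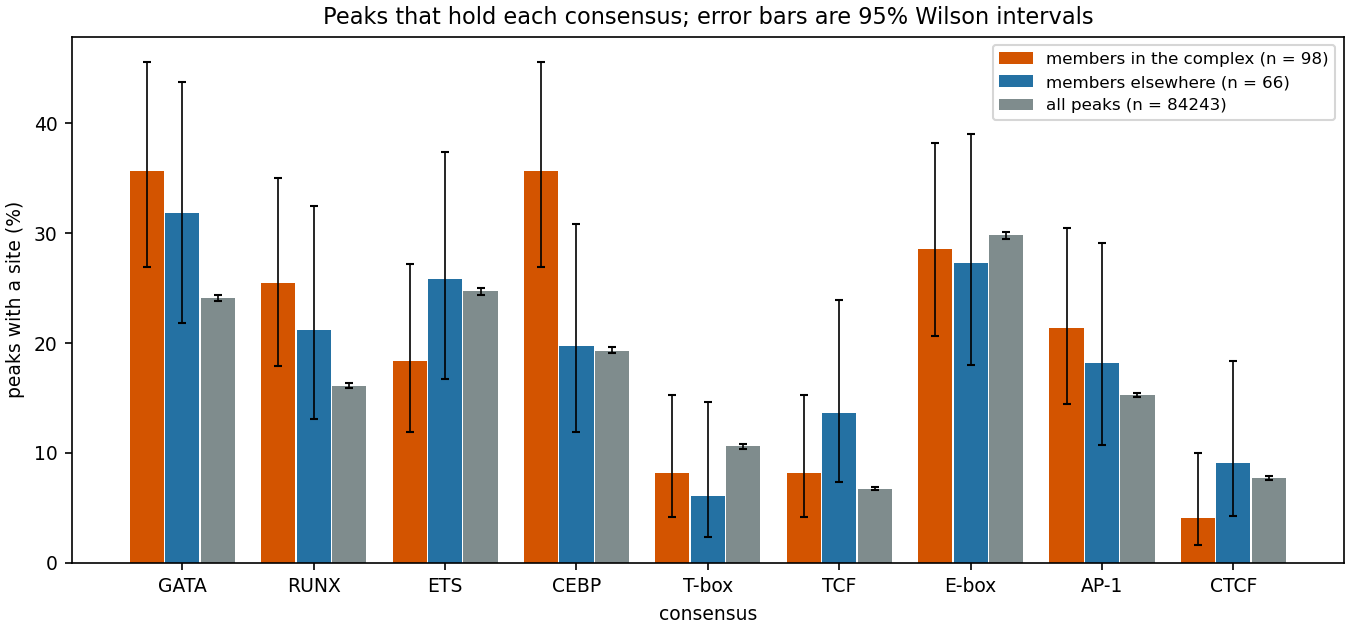
Percentage of peaks that hold each consensus word, for the 98 member peaks of the complex, the 66 member peaks elsewhere and all 84243 peaks, with 95% Wilson intervals that cover counting error only. The interval of the complex lies above the share of all peaks for CEBP, GATA and RUNX and includes it for the other 6 words. Of the 98 peaks, 27 align with another member peak and are not independent, which the intervals do not cover. Of the 25 with the RUNX word, 7 are the Klra copies.

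Other genes of the same systems were counted in 4 lists chosen for their roles, and no list was tested against the members. The share of all protein-coding genes with a promoter peak, 58.5%, stands beside each count. In the complex itself both Cd69, an activation marker of lymphocytes, and Olr1, a receptor for oxidised lipoprotein, had a promoter peak, centred 52 and 73 bp upstream. Of 24 C-type lectins with other names, 10 (41.7%, against 58.5%) had one. Among them were Selp at 66 bp, Cd93 at 18 bp and Cd302 at 370 bp downstream, and Thbd, Cd72, Ly75, Fcer2a, Mgl2 and Mrc2 at 83, 28, 54, 108, 275 and 353 bp upstream.

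Of 12 adaptors and kinases that carry the signals of these receptors, 11 (91.7%, against 58.5%) had a promoter peak within 195 bp of a TSS. Hcst, the adaptor DAP10 of NKG2D, had its peak 5 bp upstream, and Fcer1g, the γ chain of Fc receptors, 22 bp upstream. Tyrobp, the adaptor DAP12 of the activating Ly49 receptors, was the exception, with its nearest peak 925 bp upstream. The kinases Syk and Zap70 had peaks 10 bp downstream and 5 bp upstream, the phosphatases Ptpn6 and Ptpn11 32 and 6 bp downstream, and Vav1 and Plcg2 13 and 184 bp downstream. Card9, Bcl10 and Malt1, the complex below the Dectin receptors, had peaks 42, 45 and 195 bp upstream.

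Of 10 other genes typical of NK cells, 6 (60%, against 58.5%) had a promoter peak, a share near that of all protein-coding genes. They were Il2rb, Cd244a, Gzmb and Prf1 at 74, 89, 104 and 155 bp upstream and Cd226 and Tbx21 at 133 and 337 bp downstream. Ncr1, which encodes the NK receptor NKp46, and Gzma had no assigned peak, and their nearest peaks were 60032 and 54313 bp from the TSS. Eomes and Cd160 had their nearest peaks 859 and 1686 bp downstream.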

How the data were processed

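Per the paper's methods, reads were mapped to mm10 by the authors in the pipeline of ENCODE for this assay, and those with several matches in the genome were dropped. They joined the optimal peak lists of the cell types, kept non-overlapping peaks with chromVAR and annotated them with HOMER (4.10.2 in the submitters' processing notes). The deposited list holds start, end and distance to TSS of 84243 peaks of 499 bp and a peak score that was 0 throughout and was not used. It has no values per sample.

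Genes, TSSs of curated transcripts and sequences came from RefSeq for GRCm38.p6, the build of the list. For 149 of 164 member peaks the 2 distances to the TSS were within 2 bp. The complex was the chain of member genes around Klrd1 with gaps of at most 1 Mb. Shares have 95% Wilson intervals, and 4 shares were compared by two-sided Fisher's exact tests in scipy 1.17.1. Peaks were aligned with blastn 2.17.0 and mafft 7.526. The scripts that count and match were tested on simulated data.

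Named genes were the members with a promoter peak, the 5 with most assigned peaks in the complex and elsewhere, those without a peak, and genes with a promoter peak in 4 lists of related genes, of which 1 is counted but not reported here by name. Sequences were up to 8 promoter peaks of the complex and 4 elsewhere on chromosome 6. The Klra copies, the nearest peaks of other receptors named for their roles, and the genes without a promoter peak in the related lists were added after their values were seen. Members and lists were chosen with earlier results of these data known.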

Additional observations from a re-analysis of the deposited data

How the results depend on the processing

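The list is pooled, so no replicate could be left out and values per cell type could not be given. No paired analysis was possible because the list has no values per sample. With promoter peaks taken within 100 bp of a TSS, 11 member genes had one, against 18 to 20 under the other 4 definitions. The odds ratio for a promoter peak in the complex was 0.497 within 1000 bp and 0.713 without pseudogenes, and it turned to 2.36 when the Klrg1 and Clec4 block was counted with the complex. None of these 3 alternatives passed the threshold. Some repeated word was present at 27 promoters of the complex with 50-base words. The alternatives for aligned copies were chosen after seeing the data. At 90% identity, 20 member peaks aligned with another. At 80% or 90% identity over 200 bp, 0 copies of the Klra upstream sequence lacked a peak, since the divergent copies are then not found. With the 6-letter RUNX core, 4 of the 8 copies without a peak held it. In all, 18 alternatives left their counts within 1.5 times the reported value, or their test in the same direction and on the same side of the threshold. A further 6 moved their counts beyond that factor, and 1 reversed the direction of its odds ratio.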
